A study of Danio rerio with 6 samples.

Results

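The genes of the AP-1 transcription factors were followed through heart regeneration in the zebrafish. They were the rows of the deposited expression table whose symbol is fosaa, fosab, fosb, fosl1a, fosl2, jun, junba, junbb, jund or atf3, each of which occurred once, so that 10 of 25089 genes were taken. RNA was sequenced from cells sorted from the ventricle apex of fish of the Gata4:GFP strain, in which a fluorescent reporter is named after the heart transcription factor gene gata4. One group of 3 libraries came from regenerating hearts 5 days after the apex of the ventricle was resected, with the injury tissue cleared away, and the other group of 3 came from uninjured hearts of the same strain. The series describes the sorted cells as cardiomyocytes. The labels give neither the sorting gate nor the age of the fish. They do not state that libraries are from different animals either, so the p-values rest on the spread of these 6 libraries, part of which may be technical.

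AP-1 is a pair of proteins that join through a leucine zipper and grip DNA through a neighbouring basic region, and the best known site they bind is the TRE. Fos proteins cannot pair with each other and need a Jun partner, whereas Jun proteins can pair among themselves, and Atf3 can pair with itself or with Jun. Many of these genes are switched on within minutes by growth factors, wounding or stress through MAP kinases, and their transcripts are short-lived. For that reason the handling of a tissue, such as its dissociation into single cells, is known to raise them as well. In the injured zebrafish heart AP-1 is known for opening chromatin in cardiomyocytes.

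Levels are given as scaled FPKM, which is the deposited FPKM (a fragment count relative to transcript length and library total) divided by a factor for each library that aligns the median gene. The scaling was applied because, as deposited, the median gene was higher in regenerating libraries. Transcripts of the 13 mitochondrially encoded genes took 10.3% to 18.8% of summed FPKM in regenerating libraries and 21.8% to 41.9% in uninjured ones. The part of these genes in that shift was not tested. Differences are regenerating minus uninjured on the log2(scaled FPKM + 1) scale, from limma fitted to the 13319 genes above 1 FPKM in at least 3 libraries, and a gene was called at a Benjamini-Hochberg adjusted p below 0.05. Among the sorted cells, all 13 cardiomyocyte markers looked at passed the filter on low values, and their summed level was 4505 to 8703 scaled FPKM in regenerating and 7201 to 14870 in uninjured libraries. Of these 13 markers, 4 fell and 0 rose. Markers of other cells were also present. The summed level of 9 epicardial markers was 1400 to 1927 scaled FPKM in regenerating and 395 to 406 in uninjured libraries. All 9 rose, and 7 did so without regenerating replicate 1 or 3 or uninjured replicate 3. For 10 fibroblast markers the summed level was 1547 to 1668 in regenerating and 280 to 445 in uninjured libraries. Of these markers 8 rose, and 6 to 8 did when 1 library was left out. For 12 endothelial and endocardial markers the summed level was 128 to 228 in regenerating and 119 to 152 in uninjured libraries. Of these, 4 rose (0 without regenerating replicate 1 or 2, and 1 without uninjured replicate 3). The 6 thrombocyte markers summed to 143 to 282 scaled FPKM in regenerating and 410 to 816 in uninjured libraries, and 3 of them fell (1 when regenerating replicate 3 was left out, 0 when replicate 1 of that group was). The 6 erythrocyte markers summed to 364 to 1045 scaled FPKM in regenerating and 6.45 to 417 in uninjured libraries, and 3 of them rose (1 without regenerating replicate 1 or 2, and 6 without uninjured replicate 1). One of the 3, alas2, was below 1 FPKM in every uninjured library and passed the filter through its regenerating values. Of the leukocyte markers 1 of 8 tested rose (2 without uninjured replicate 1), and 0 of 3 tested neutrophil markers passed the test in either direction. No marker looked at lay at or below 0.1 FPKM in all 6 libraries. This does not show that each was expressed. Genes of 900 to 1300 nt without counts had library medians of 0.14 to 0.21 FPKM. In such pooled material fewer cells of a type and less RNA per cell cannot be told apart, and the part of these other cells in the AP-1 values was not tested.

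AP-1 transcripts were abundant in both groups, and none of those tested passed the test for a change. Of the 10 genes, 9 passed the filter on low values, and each of these 9 ranked between place 28 and place 545 of all 25089 genes in every library. Among the 9 tested genes 0 were called higher and 0 lower, whereas 11.4% of all tested genes were called, 7.50% higher and 3.94% lower (limma, adjusted p below 0.05). At an unadjusted p below 0.05 limma again gave 0 of the 9, against 26.7% of all tested genes. Among the 389 tested genes that were at least as abundant as the least abundant of the 9, 23.7% were called and 40.4% had groups that did not overlap. The median difference of the 9 was -0.17, and that of all tested genes was 0.05. In the scaled fit, limma's 95% intervals put the fold changes of the 9 genes between 0.457 and 1.96 times the uninjured level. Changes outside that span lie beyond the intervals of that fit, and changes within it were not resolved with 3 libraries against 3. The span depends on the scaling: unscaled, the log2 difference of jun was 1.08, above the highest scaled bound of 0.97. The authors' deposited table, which gives its own fold changes and p-values, lists 0 of the 10 past an adjusted p of 0.05, against 9.46% of the 21504 genes with counts. At an unadjusted p below 0.05 it lists 2, fosab and junbb, both with fold changes below 0 and adjusted p-values of 0.212 and 0.0838 in that table. The share of all genes past that unadjusted threshold was not computed, so whether this count is unusual is not known. Of the 1524 genes called here, all had the same sign in the authors' deposited table, so its fold changes run in the same direction.

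**Figure D1:**
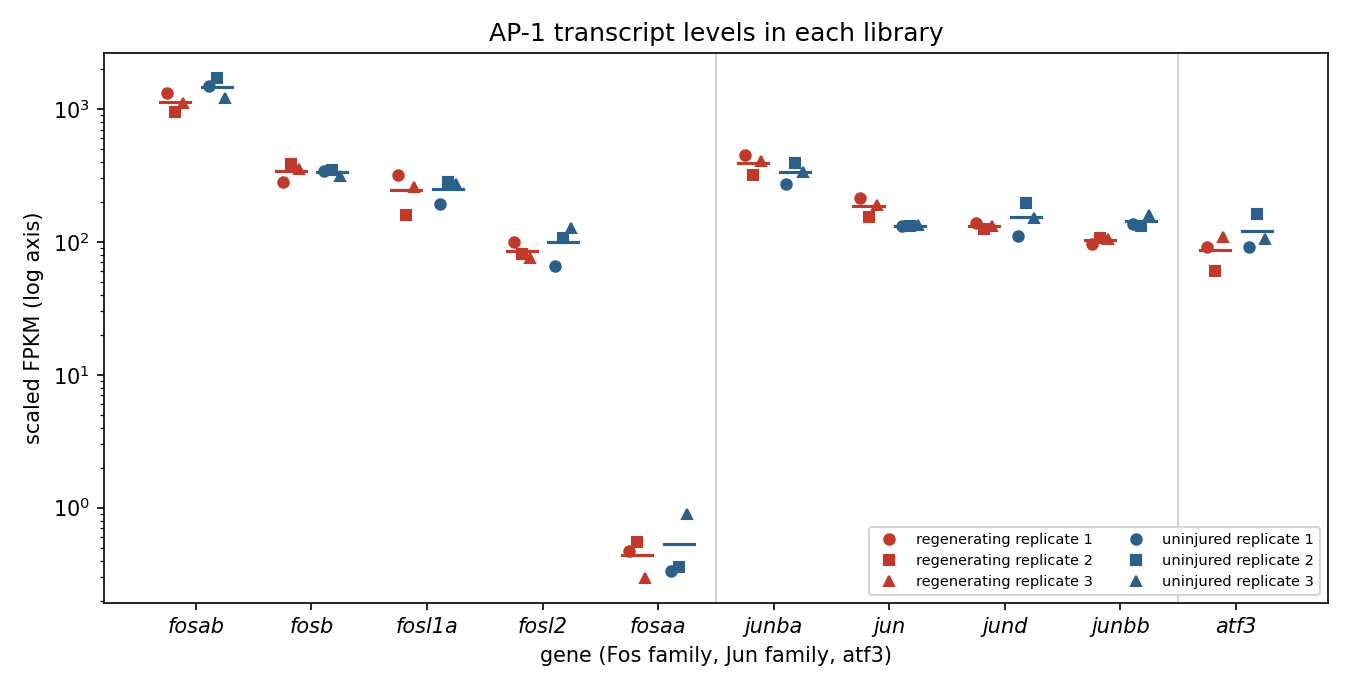
Level of each AP-1 gene in scaled FPKM on a log axis, with 1 point per library (regenerating in red, uninjured in blue, marker shape by replicate) and a line at each group mean (n = 3). The 3 regenerating points stand apart from the 3 uninjured points in jun, where they are higher, and in junbb, where they are lower (the junbb groups overlap unscaled), and fosaa lies below 1 in all 6 libraries.

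The Fos side was dominated by 1 gene. The transcript of fosab (ENSDARG00000031683), a zebrafish counterpart of the mammalian proto-oncogene FOS, was measured at 1322, 950.2 and 1118 scaled FPKM in regenerating replicates 1 to 3, against 1486, 1712 and 1212 in uninjured replicates 1 to 3. The groups overlapped, because regenerating replicate 1 was above uninjured replicate 3. Its log2 difference was -0.38 (SE 0.26, 95% interval -0.95 to 0.20, limma adjusted p = 0.379). It was the most abundant of the 10 genes in every library, ranking between place 29 and place 37 of all genes in regenerating libraries and between place 28 and place 30 in uninjured ones. The authors' mean normalised count of fosab was 14909.

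The second Fos gene by level was fosb (ENSDARG00000055751), whose mammalian namesake is another rapidly induced Fos protein. It measured 284, 385 and 352 scaled FPKM in regenerating libraries, against 343, 347 and 311 in uninjured libraries. The regenerating values lay on both sides of the uninjured ones, and the difference was 0.02 (SE 0.23, 95% interval -0.49 to 0.53, limma adjusted p = 0.970). As deposited, the groups of fosb did not overlap, with 378, 430.5 and 461 FPKM in regenerating libraries against 257, 347 and 226 in uninjured libraries (0.63, limma adjusted p = 0.160). The Fos-related antigens, which in mammals are induced later and last longer than FOS, followed. The gene fosl1a (ENSDARG00000015355), a relative of mammalian Fra-1, measured 320, 160 and 257 scaled FPKM in regenerating libraries, against 191, 282 and 272 in uninjured libraries. Its highest and its lowest value both came from regenerating hearts, and the difference was -0.05 (SE 0.30, 95% interval -0.73 to 0.63, limma adjusted p = 0.933). Without regenerating replicate 2, the lowest library, the difference of fosl1a was 0.23 (limma adjusted p = 0.658).

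Relative to these, fosl2 (ENSDARG00000040623), the counterpart of mammalian Fra-2, was lower, with 101, 81.2 and 75.8 scaled FPKM in regenerating libraries against 66.0, 107.5 and 127 in uninjured libraries. The groups overlapped, and the uninjured libraries were the more widely spread. The difference of fosl2 was -0.18 (SE 0.28, 95% interval -0.81 to 0.46, limma adjusted p = 0.729). The other fos copy, fosaa (ENSDARG00000040135), measured 0.473, 0.554 and 0.298 scaled FPKM in regenerating libraries, against 0.334, 0.360 and 0.895 in uninjured libraries. It was below 1 FPKM throughout, did not pass the filter and was not tested. As deposited, fosaa had 0.390 to 0.630 FPKM in regenerating and 0.250 to 0.650 FPKM in uninjured libraries. For comparison, the 1014 genes of 900 to 1300 nt with a mean normalised count of 0 had medians of 0.150 to 0.190 FPKM in regenerating and 0.140 to 0.210 FPKM in uninjured libraries, and fosaa was above the median in all 6. It was above their 95th percentile in regenerating replicate 1 (0.630 against 0.594 FPKM), level with it in uninjured replicate 3 (0.650 FPKM), and below it in the other 4 libraries. The authors' mean normalised count of fosaa was 1.44, and no fold is given.

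Jun proteins supply the partner that Fos needs, and all 4 genes were well expressed. The gene jun (ENSDARG00000043531), the counterpart of the mammalian proto-oncogene JUN, measured 213.5, 153.6 and 188.7 scaled FPKM in regenerating libraries, against 132.0, 132.3 and 133.4 in uninjured libraries. All 3 regenerating values were above all 3 uninjured values, which lay within 2 scaled FPKM of each other. The group means of jun were 185 ± 30.1 in regenerating and 133 ± 0.758 in uninjured libraries (SD, n = 3), and the difference was 0.47 (SE 0.22, 95% interval -0.03 to 0.97, limma adjusted p = 0.218). With FPKM as deposited, unscaled, the difference of jun was 1.08 (SE 0.32, limma adjusted p = 0.0318), so that jun passed there. That fit called 25.3% of all tested genes, 23.7% higher and 1.52% lower, and its median gene was at 0.51, against 0.05 in the scaled fit.

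The gene junbb (ENSDARG00000104773), one of a pair of zebrafish junb genes, showed the opposite order. Its values were 96.4, 107.0 and 104.3 scaled FPKM in regenerating libraries, against 136, 132 and 159 in uninjured libraries. All 3 regenerating values were below all 3 uninjured values, and the difference was -0.47 (SE 0.21, 95% interval -0.95 to 0.01, limma adjusted p = 0.196). As deposited, the groups overlapped for junbb and its difference was 0.14 (limma adjusted p = 0.756). The direction thus depended on whether the values were scaled. With upper-quartile scaling the difference was -0.53 (limma adjusted p = 0.152). Scaling to the total without mitochondrial genes gave -0.52 (limma adjusted p = 0.218). Counting jun and junbb, 2 of the 9 tested genes (22.2%) had groups that did not overlap, against 32.8% of all tested genes, 19.1% higher and 13.7% lower in regenerating libraries. This share was not above that of genes in general.

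Its paralog junba (ENSDARG00000074378) was the most abundant Jun gene, with 450, 316.5 and 406 scaled FPKM in regenerating libraries against 271, 390.4 and 338 in uninjured libraries. The groups overlapped through regenerating replicate 2, and the difference was 0.23 (SE 0.25, 95% interval -0.33 to 0.79, limma adjusted p = 0.601). The gene jund (ENSDARG00000067850), whose mammalian namesake is expressed more steadily than the other Jun genes, measured 139, 125 and 132 scaled FPKM in regenerating libraries. In uninjured libraries jund measured 112, 196 and 151, a range that encloses the regenerating values. Its difference was -0.17 (SE 0.26, 95% interval -0.75 to 0.40, limma adjusted p = 0.705). Whether junba and junbb, or fosaa and fosab, share reads was not checked here.

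The stress-induced factor gene atf3 (ENSDARG00000007823), whose product can pair with Jun and in mammals often represses, measured 92.3, 60.7 and 110 scaled FPKM in regenerating libraries, against 92.3, 163 and 104 in uninjured libraries. The groups overlapped, with the lowest library among the regenerating and the highest among the uninjured ones. The difference of atf3 was -0.45 (SE 0.31, 95% interval -1.13 to 0.23, limma adjusted p = 0.380). Without uninjured replicate 2, the highest library, it was -0.20 (limma adjusted p = 0.712).

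**Figure D2:**
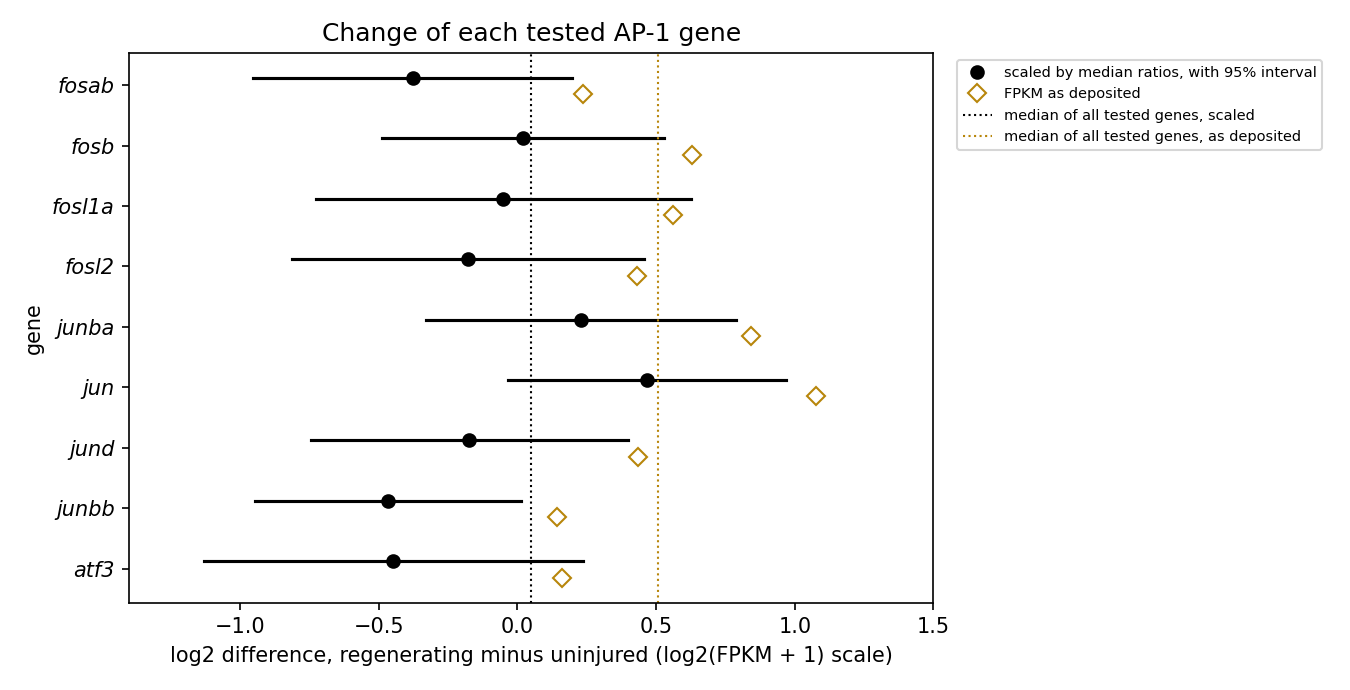
Log2 difference of the 9 tested AP-1 genes, regenerating minus uninjured, with scaled values and their 95% limma intervals in black and unscaled values as open diamonds; dotted lines mark the medians of all tested genes (0.05 scaled, 0.51 as deposited). Every black interval spans 0, and all unscaled values sit to the right of the scaled ones, as does the median gene.

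Per length, the order of the levels was much alike in the groups. In regenerating libraries the order of the means ran from fosab through junba, fosb, fosl1a, jun, jund, junbb, atf3 and fosl2 to fosaa. The ranges were apart between fosab and junba, between jun and jund, between jund and junbb, and between fosl2 and fosaa, and the other neighbours overlapped. In uninjured libraries the order ran from fosab through fosb, junba, fosl1a, jund, junbb, jun, atf3 and fosl2 to fosaa. Only the first step, from fosab to fosb, and the last, from fosl2 to fosaa, had ranges apart there. The gene jun thus held place 5 of the 10 in regenerating and place 7 in uninjured libraries.

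Shares within a library do not depend on how libraries are scaled. Of the summed FPKM of the 10 genes, fosab held 43.8%, 40.6% and 40.7% in regenerating libraries, against 52.5%, 49.4% and 43.2% in uninjured libraries, with a small overlap. The share of jun was 7.07%, 6.57% and 6.88% in regenerating libraries, against 4.66%, 3.82% and 4.75% in uninjured libraries. For junba it was 14.9%, 13.5% and 14.8% in regenerating libraries, against 9.58%, 11.3% and 12.04% in uninjured libraries. In both of these Jun genes the regenerating shares were all above the uninjured ones, which carries no test. How often such a share fails to overlap was not computed for other genes. A share also depends on the rest of the sum, of which fosab was the largest part, and the scaled levels of junba overlapped. The share of junbb was 3.19%, 4.57% and 3.80% in regenerating libraries, against 4.81%, 3.82% and 5.67% in uninjured libraries, and these overlapped. The sum of the 5 Fos genes divided by the sum of the 4 Jun genes was 2.26, 2.25 and 2.17 in regenerating libraries, against 3.21, 2.88 and 2.46 in uninjured libraries. Fos transcripts thus exceeded Jun transcripts per length in all 6 libraries. The 3 regenerating ratios lay below the 3 uninjured ones. A ratio of single genes that does not overlap between the groups is common, at 50.3% of pairs of genes at least as abundant as the least abundant tested AP-1 gene. No such share was computed for ratios of sums. Scaled sums of the Fos genes were 1802 ± 226 in regenerating and 2152 ± 269 FPKM in uninjured libraries, and those of the Jun genes were 811 ± 99.9 in regenerating and 762 ± 102 FPKM in uninjured libraries (SD, n = 3).

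**Figure D3:**
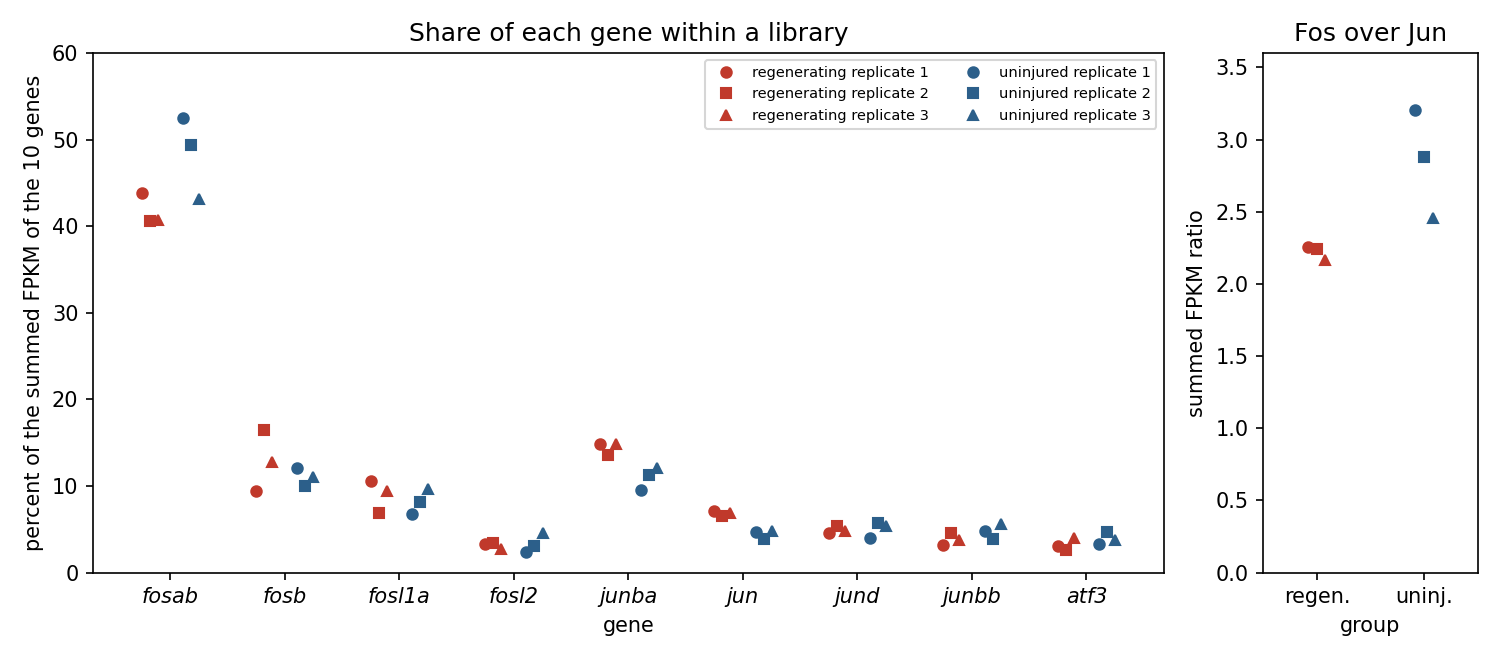
Left, the percent of the summed FPKM of the 10 AP-1 genes that each of the 9 more abundant genes held, with 1 point per library; right, the ratio of the summed Fos to the summed Jun genes in each library (regenerating in red, uninjured in blue, axes from 0). Regenerating shares lie above uninjured ones for jun and junba. The regenerating ratios of 2.17 to 2.26 lie below the uninjured ratios of 2.46 to 3.21. Among ratios between single abundant genes 50.3% do not overlap, and no such value was computed for gene shares or for ratios of sums.

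Ratios between single AP-1 genes were also free of the scaling. Of the 36 pairs among the 9 tested genes, 9 pairs (25.0%) had a ratio whose groups did not overlap. Among all 75466 pairs of the 389 genes of that abundance the share was 50.3%, so the share among the AP-1 pairs was not above that of abundant genes in general. Within the Jun family, jun over junbb was 2.21, 1.44 and 1.81 in regenerating libraries, against 0.969, 0.9998 and 0.838 in uninjured libraries. The ratio of junba to junbb was 4.66, 2.96 and 3.89 in regenerating libraries, against 1.99, 2.95 and 2.13 in uninjured libraries, with hardly a gap between the lowest regenerating and the highest uninjured value. Between the families, fosab over jun was 6.19, 6.18 and 5.93 in regenerating libraries, against 11.3, 12.9 and 9.08 in uninjured libraries. Ratios of jun and of junba to jund and to atf3, of fosab to junba, and of fosb to junbb made up the rest. None of the 9 pairs held fosl1a or fosl2. These ratios were picked after their values were seen and carry no test.

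Other factors of the same DNA-binding class include partners and rivals of AP-1. The counts of the lists from here on stand beside the shares over all tested genes. These shares were 7.50% called higher and 3.94% lower, and 23.7% and 1.52% unscaled. Of 36 tested genes of other bZIP factors, 2 rose, 1 fell and 33 did not pass, with a median difference of 0.10 (7 rose and 0 fell unscaled). Without regenerating replicate 2 or 3 or uninjured replicate 3, 0 genes of this list passed, and without uninjured replicate 1 there were 2 that rose and 2 that fell. The risers were mafba (9.87 ± 0.730 scaled FPKM in regenerating and 3.76 ± 1.51 in uninjured libraries, SD, n = 3), a large Maf factor gene, and fosl1b. The call of mafba was lost without any 1 of the regenerating replicates or without uninjured replicate 3 (limma adjusted p = 0.0686 to 0.0982). This fosl1b is a second zebrafish fosl1 gene, with 0.931, 4.26 and 1.47 scaled FPKM in regenerating libraries against 0.200, 0.220 and 0.234 in uninjured libraries. Its regenerating values alone carried it past the filter, it kept its call in 1 of the 6 fits that left out a library, and its level was far below that of fosl1a. The gene that fell was nfil3-5, with 10.7 ± 2.82 scaled FPKM in regenerating and 27.5 ± 7.73 in uninjured libraries (SD, n = 3; log2 difference -1.27, limma adjusted p = 0.0233, and -0.70 unscaled with limma adjusted p = 0.170). The call of nfil3-5 was lost without regenerating replicate 2 or 3 or uninjured replicate 2 or 3 (limma adjusted p = 0.0561 to 0.0879). The most abundant gene of the list was jdp2b, whose mammalian counterpart pairs with Jun and represses AP-1 sites. It measured 772, 582 and 769.5 scaled FPKM in regenerating libraries, against 522, 345 and 383 in uninjured libraries. All regenerating values of jdp2b were above the uninjured ones. Its difference was 0.77 (SE 0.26, limma adjusted p = 0.0842), and jdp2b passed unscaled (1.39, limma adjusted p = 0.0130) and without uninjured replicate 1 (limma adjusted p = 0.0380).

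Kinases of the ERK, JNK and p38 routes act on Fos and Jun proteins and on their genes. Among 27 tested genes of the MAP kinase cascade, 1 rose and 0 fell, with a median difference of 0.01 (5 rose unscaled, and 2 without uninjured replicate 1). The riser, map2k1, encodes the kinase MEK1 that activates ERK, and it measured 14.5, 13.5 and 14.3 scaled FPKM in regenerating libraries, against 3.02, 0.600 and 4.54 in uninjured libraries (log2 difference 2.20, SE 0.42, limma adjusted p = 0.0113). It did not pass without regenerating replicate 1 (limma adjusted p = 0.0531) or 2 (limma adjusted p = 0.0511). The most abundant, mapk3, which encodes the ERK1 kinase, measured 20.2 ± 3.38 in regenerating and 18.1 ± 6.22 scaled FPKM in uninjured libraries (SD, n = 3; limma adjusted p = 0.723). Serum response factor switches on Fos genes together with some of its partners. Of 9 tested genes of this factor and its partners of all kinds, 1 fell and 0 rose, with a median difference of -0.07. The gene that fell was myocd, which encodes the muscle co-activator myocardin, with 21.4 ± 9.88 scaled FPKM in regenerating and 68.9 ± 11.2 in uninjured libraries (SD, n = 3; log2 difference -1.72, SE 0.32, limma adjusted p = 0.0104, and 0.0531 without regenerating replicate 1).

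Immediate early genes other than the AP-1 genes went both ways. Of 45 tested, 7 rose, 4 fell and 34 did not pass, with a median difference of 0.04, and in the unscaled fit 10 rose and 2 fell. There were 2 that rose and 2 that fell without regenerating replicate 1, 3 and 2 without regenerating replicate 3, 4 and 3 without uninjured replicate 2, and 4 and 2 without uninjured replicate 3. Rises included id1, an inhibitor of bHLH factors, at 181 ± 21.1 in regenerating and 38.2 ± 7.04 scaled FPKM in uninjured libraries. The Kruppel-like factor gene klf6a measured 143 ± 20.9 in regenerating and 57.6 ± 8.33 scaled FPKM in uninjured libraries, and ier5l measured 32.2 ± 4.41 in regenerating and 9.79 ± 3.67 in uninjured libraries (SD, n = 3 each). Without regenerating replicate 1 klf6a did not pass (limma adjusted p = 0.0564). Falls included the nuclear receptor gene nr4a2b, at 2.39 ± 1.011 in regenerating and 33.2 ± 14.4 scaled FPKM in uninjured libraries. Its relative nr4a1 measured 53.5 ± 11.2 in regenerating and 124 ± 24.2 scaled FPKM in uninjured libraries, and csrnp1a measured 3.04 ± 1.12 in regenerating and 21.4 ± 6.16 in uninjured libraries. Unscaled, nr4a1 did not pass (limma adjusted p = 0.156), nor without regenerating replicate 1 or 3 or uninjured replicate 3 (limma adjusted p = 0.0561 to 0.0707). The most abundant, btg2, an antiproliferative gene, was at 601 ± 30.7 in regenerating and 964 ± 285 scaled FPKM in uninjured libraries (log2 difference -0.64, limma adjusted p = 0.158). The summed level of the 48 genes found was 5867 to 7016 scaled FPKM in regenerating and 6004 to 7011 in uninjured libraries. Several of these genes, like the AP-1 genes, are known to be induced by dissociation, to which both groups were exposed, and its part in the levels was not tested.

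Heat shock genes, the other group commonly raised by cell handling, had 2 risers and 0 fallers among 24 tested, with a median difference of 0.25. Both risers encode chaperones of the endoplasmic reticulum. The first, hspa5, measured 143 ± 40.5 in regenerating and 50.2 ± 7.69 scaled FPKM in uninjured libraries, and the second, hsp90b1, measured 50.2 ± 11.0 in regenerating and 17.1 ± 3.78 in uninjured libraries (SD, n = 3 each). Without regenerating replicate 1 hsp90b1 did not pass (limma adjusted p = 0.0523). The most abundant, hspa8, was at 639 ± 150 in regenerating and 383 ± 79.5 scaled FPKM in uninjured libraries (limma adjusted p = 0.117). Unscaled, 10 of the 24 rose, and without uninjured replicate 1, 5 rose. Over all tested genes 7.50% were called higher in the scaled fit and 23.7% in the unscaled fit.

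Genes known from mammals as AP-1 targets include matrix, protease and wound genes. Of 25 tested, 12 rose, 1 fell and 12 did not pass, with a median difference of 0.78 beside 0.05 for all tested genes. Leaving out 1 library gave 9 to 12 that rose and 0 or 1 that fell. Over all tested genes 7.50% were called higher and 3.94% lower. Of the 12 that rose, 3 (mmp9, mmp13b and plaua) were at or below 1 FPKM in every uninjured library and passed the filter through their regenerating values. The fibronectin gene fn1a, a matrix gene of wound repair, measured 146, 138 and 149.5 scaled FPKM in regenerating libraries, against 11.3, 9.91 and 10.9 in uninjured libraries (log2 difference 3.63, SE 0.21, limma adjusted p = 4.6e-05). The keratin gene krt18 measured 362 ± 17.5 in regenerating and 50.5 ± 6.38 scaled FPKM in uninjured libraries. The relative of fn1a, fn1b, the most abundant gene of the list, measured 553 ± 174 in regenerating and 136 ± 37.2 scaled FPKM in uninjured libraries (SD, n = 3). The collagenase gene mmp13b measured 7.47, 23.2 and 8.97 scaled FPKM in regenerating libraries, against 0.454, 0.160 and 0.179 in uninjured libraries. The cytokine gene il11b fell, with 75.1, 139 and 54.8 scaled FPKM in regenerating libraries against 179, 301 and 221 in uninjured libraries (log2 difference -1.45, SE 0.35, limma adjusted p = 0.0280), but did not pass unscaled (limma adjusted p = 0.143). It also missed the threshold without regenerating replicate 1 or 3 or uninjured replicate 2 or 3 (limma adjusted p = 0.0672 to 0.113). Its paralog il11a, on the same list, went the other way, with a log2 difference of 3.27 (3.79 unscaled). Whether AP-1 drives these genes in these cells was not tested. Of the epicardial markers above, krt18 is also on this list. The summed epicardial and fibroblast marker levels were higher in regenerating libraries as well, and the part of those cells in the target values was not tested.

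**Figure D4:**
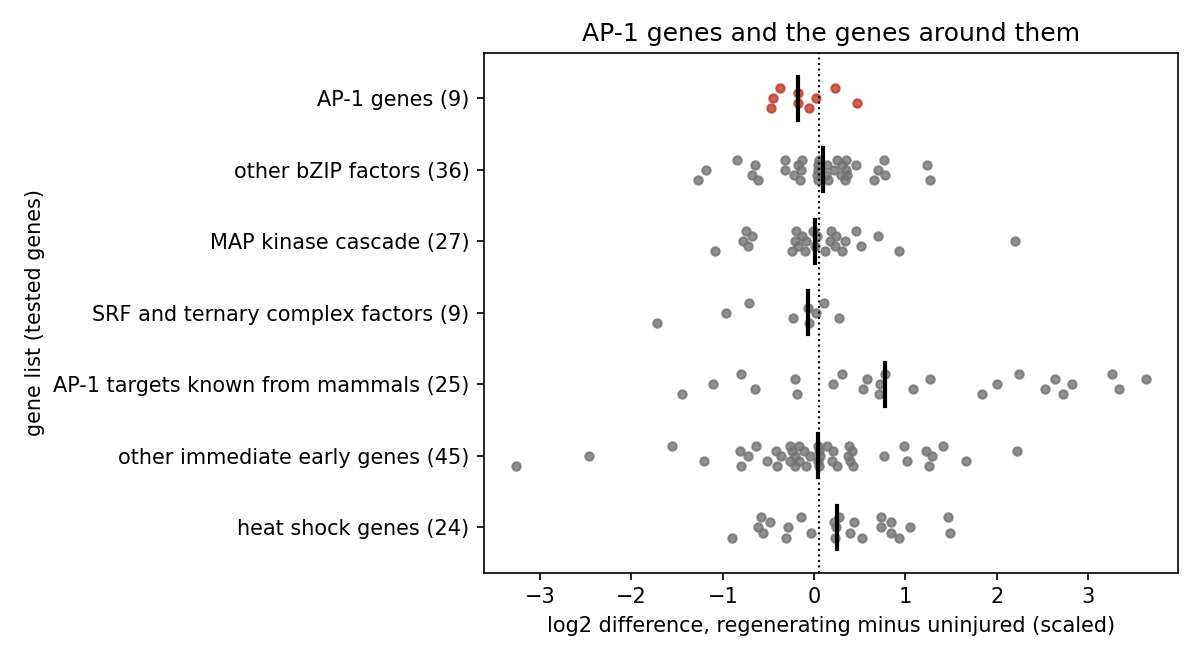
Log2 difference, regenerating minus uninjured, of each tested gene of the AP-1 set (red) and of the lists around it (grey), with list medians as black bars and the median of all tested genes, 0.05, as a dotted line. The AP-1 genes lie between -0.47 and 0.47, whereas genes of the mammalian target list reach 3.63.

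Genes whose level followed that of an AP-1 gene most closely over the 6 libraries were sought among 2771 tested genes. These had a mean of at least 10 scaled FPKM. The AP-1 genes themselves and genes with no symbol or only a placeholder symbol were left out. Closest to fosab were srsf3b (Pearson r = 0.990), nup153 (r = 0.983) and fnbp4 (r = 0.961). For junba they were syncripl (r = 0.970), lsm12b (r = 0.967) and sepp1a (r = 0.966), and for atf3 they were rras2 (r = 0.981), plecb (r = 0.966) and daam1b (r = 0.965). These are the highest of 2771 values each over 6 libraries, which share their scaling factors, and they are given as a description. None of the 9 genes passed the test between the groups, with limma adjusted p-values from 0.232 for plecb to 0.704 for lsm12b.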

How the data were processed

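RNA from sorted cells was amplified to cDNA with a low-input kit and sequenced as paired ends in 6 libraries, per the labels' protocols. The submitters' processing notes name build GRCz10 and, without their roles, R 3.3.3, DESeq2, RSEM 1.3.0 and STAR 2.5.3a. The authors deposited log2 values of FPKM, with an offset, per the file headers and the values. After the log2 was undone, 100% of values lay within 0.001 of a grid of 0.01 and the lowest was 0.1, so 0.1 was subtracted. The authors also deposited a fold change, a p-value, an adjusted p and a mean normalised count (unit: signal) for each gene. They also give each gene's length in nt. Counts per library are not known, so depth per library is unknown.

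FPKM were divided by median-ratio factors from 8924 genes (over 1 FPKM in every library). For log2(scaled FPKM + 1), limma (version 3.58.1, R version 4.3.3) used group as its sole term and an intensity trend. The fit was also run on simulated data, in which all added changes were larger than those of the AP-1 genes. That run does not show how well changes of the AP-1 genes' size would be found. Tests were two-sided, with Benjamini-Hochberg adjustment over 13319 genes. The pseudocount of 1 understates changes of low genes. Alternatives were other scalings, pseudocounts, filters, no trend, the replicate number as a block, and leaving out each library.

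The members and lists were chosen with earlier results of these data known, and lists were matched by symbol, taking the row with the highest mean. Named were all AP-1 genes, and from each list the most abundant tested gene and up to 3 called genes in each direction with the smallest p. A few other genes, such as il11a, are named for the reason given beside them. Genes most like fosab, junba (the most abundant of each family) and atf3 were ranked by Pearson r. One gene that this rule names is not reported here and was left out of its list. No coordinates are printed, since the reference used here is of another build.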

Additional observations from a re-analysis of the deposited data

How the results depend on the processing

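Over 15 alternatives none of the 9 tested AP-1 genes was called lower, and 1 was called higher in 1 alternative, jun without scaling (1.08, limma adjusted p = 0.0318). The difference of jun stayed above 0 in all 15, between 0.36 and 1.08, with limma adjusted p-values of 0.0318 to 0.529. Of 135 member values, 118 kept their direction and side of the threshold and 16 changed sign, none of them called. Without scaling, where the median gene was at 0.51, the sign turned for fosab (0.24), fosl1a (0.56), fosl2 (0.43), junbb (0.14), jund (0.44) and atf3 (0.16). For fosb, near 0, it turned with upper-quartile scaling (-0.048), scaling to the total without mitochondrial genes (-0.033), and without regenerating replicate 2 or 3 or uninjured replicate 3 (-0.076 to -0.012). Leaving out a library gave -0.27 to 0.23 for fosl1a, -0.45 to 0.018 for fosl2 and -0.38 to 0.024 for jund. Over all tested genes, 999 were called higher and 525 lower. These were 3161 and 203 without scaling and 479 and 202 without a filter. Leaving out a library gave 367 to 1031 higher and 145 to 568 lower. No pairing by replicate number was visible, which does not show that same-numbered libraries were handled apart. The correlations of same-numbered deviations from the group means were -0.01, -0.01 and -0.06, and those of other pairs were -0.05 to 0.07. With the replicate block 917 genes were called higher and 485 lower, and 0 AP-1 genes, as without it. The cause of these shifts was not tested. Depth per library is unknown, which limits fosaa and fosl1b.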
